A study of Bos taurus with 12 samples.

Results

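The transcripts of 10 heat shock protein genes, HSPB8, HSPB1, HSP90AA1, HSP90AB1, HSPH1, HSPA1A, HSPA8, HSPD1, HSPE1 and DNAJB1, were followed in bovine endometrium. The members were all probe sets to which the platform annotation gives exactly 1 of these symbols, which yielded 21 of the 24016 probe sets tested and 10 of the 9155 named genes. All 10 genes were on the array. HSPA1A had 6 probe sets, HSPH1 had 4, HSPB1, HSP90AA1 and DNAJB1 had 2 each, and the other genes had 1 each. The brightest probe set of a gene over the 12 arrays is called its lead probe set.

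Endometrial RNA came from Simmental heifers on day 7 or day 3 of the estrous cycle, and RNA pools were classed as receptive or non-receptive by whether pregnancy followed the transfer of embryos produced in vivo. The 2 days and 2 receptivity classes give 4 groups, each of 3 pools, with 1 Affymetrix bovine array per pool. No group received a treatment according to the labels. The labels state neither how many animals form a pool nor that pools come from separate animals, so p-values measure the spread between pools, which may be technical.

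Heat shock proteins are chaperones, which bind unfolded protein and help it to fold, to refold or to be broken down. In the cytosol small heat shock proteins hold unfolded protein, the HSP70 proteins fold it with J domain proteins and nucleotide exchange factors, and HSP90 matures kinases and steroid receptors. The receptors for estrogen and progesterone, the hormones that change between these stages of the cycle, are classical HSP90 clients. HSPD1 and HSPE1 are an exception among the members, since they form the chaperonin of mitochondria and its lid, and their genes are neighbours.

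Signals are log2 values with a floor of 0, and a difference of 1 is a doubling of signal. Array medians lay between 6.64 and 6.76 and averaged 0.064 less on day 7 than on day 3, and an exact permutation test of day, with receptivity held, gave its smallest p (0.005, adjusted to 0.025 over 10 tests of array measures). The gap between the 3′ and 5′ probe sets of the actin control, which widens where cRNA falls short of the 5′ end, was wider in receptive pools by 0.998, with the same p and adjusted p in the exact test with day held, whereas GAPDH gave p = 0.925. The mean of the poly-A spike controls was between 7.40 and 7.54 in 3 pools, pool 2 of receptive day 3, of non-receptive day 7 and of non-receptive day 3. The remaining 9 pools had 6.33 to 6.91. Of 12 epithelial markers, 11 were measured and none was at 0 in any pool, and their summed signal was 14.85 to 15.27 on day 7 and 14.91 to 15.17 on day 3.

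Between day 7 and day 3, more heat shock protein transcripts fell than rose. Averaged over receptivity groups, 7 of the 21 probe sets fell, which were those of HSPB8, HSP90AA1 (both), HSP90AB1, HSPH1 and HSPD1 (1 each) and 1 of HSPA1A, and 1 probe set of DNAJB1 rose (limma, adjusted p under 0.05). Among all probe sets tested, 9.44% were called lower and 4.76% higher. By lead probe sets, 5 of the 10 genes fell and 0 rose, against 10.3% and 6.76% of all genes. As the members were chosen with earlier results of these data known, these shares are a description and no test. At an unadjusted p under 0.05 there were 13 of 21 probe sets, against 7388 of all 24016, and the 15 with a negative difference included 4 of HSPH1 and 1 of HSPA1A.

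The median difference over the 21 probe sets was -0.23, against -0.05 over all probe sets. With each array centred on its median, which moved the median of all probe sets to 0.01, 5 member probe sets were called lower and 2 higher. Of the 16 member probe sets brighter than the median of the array, 7 were called lower, where 12.7% of such probe sets were called lower and 6.11% higher. The values of both days did not overlap for 6 probe sets that were lower and 1 that was higher on day 7, against 5.16% and 2.55% of all probe sets. In bulk RNA, fewer cells of a type and less RNA per cell cannot be told apart.

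**Figure D1:**
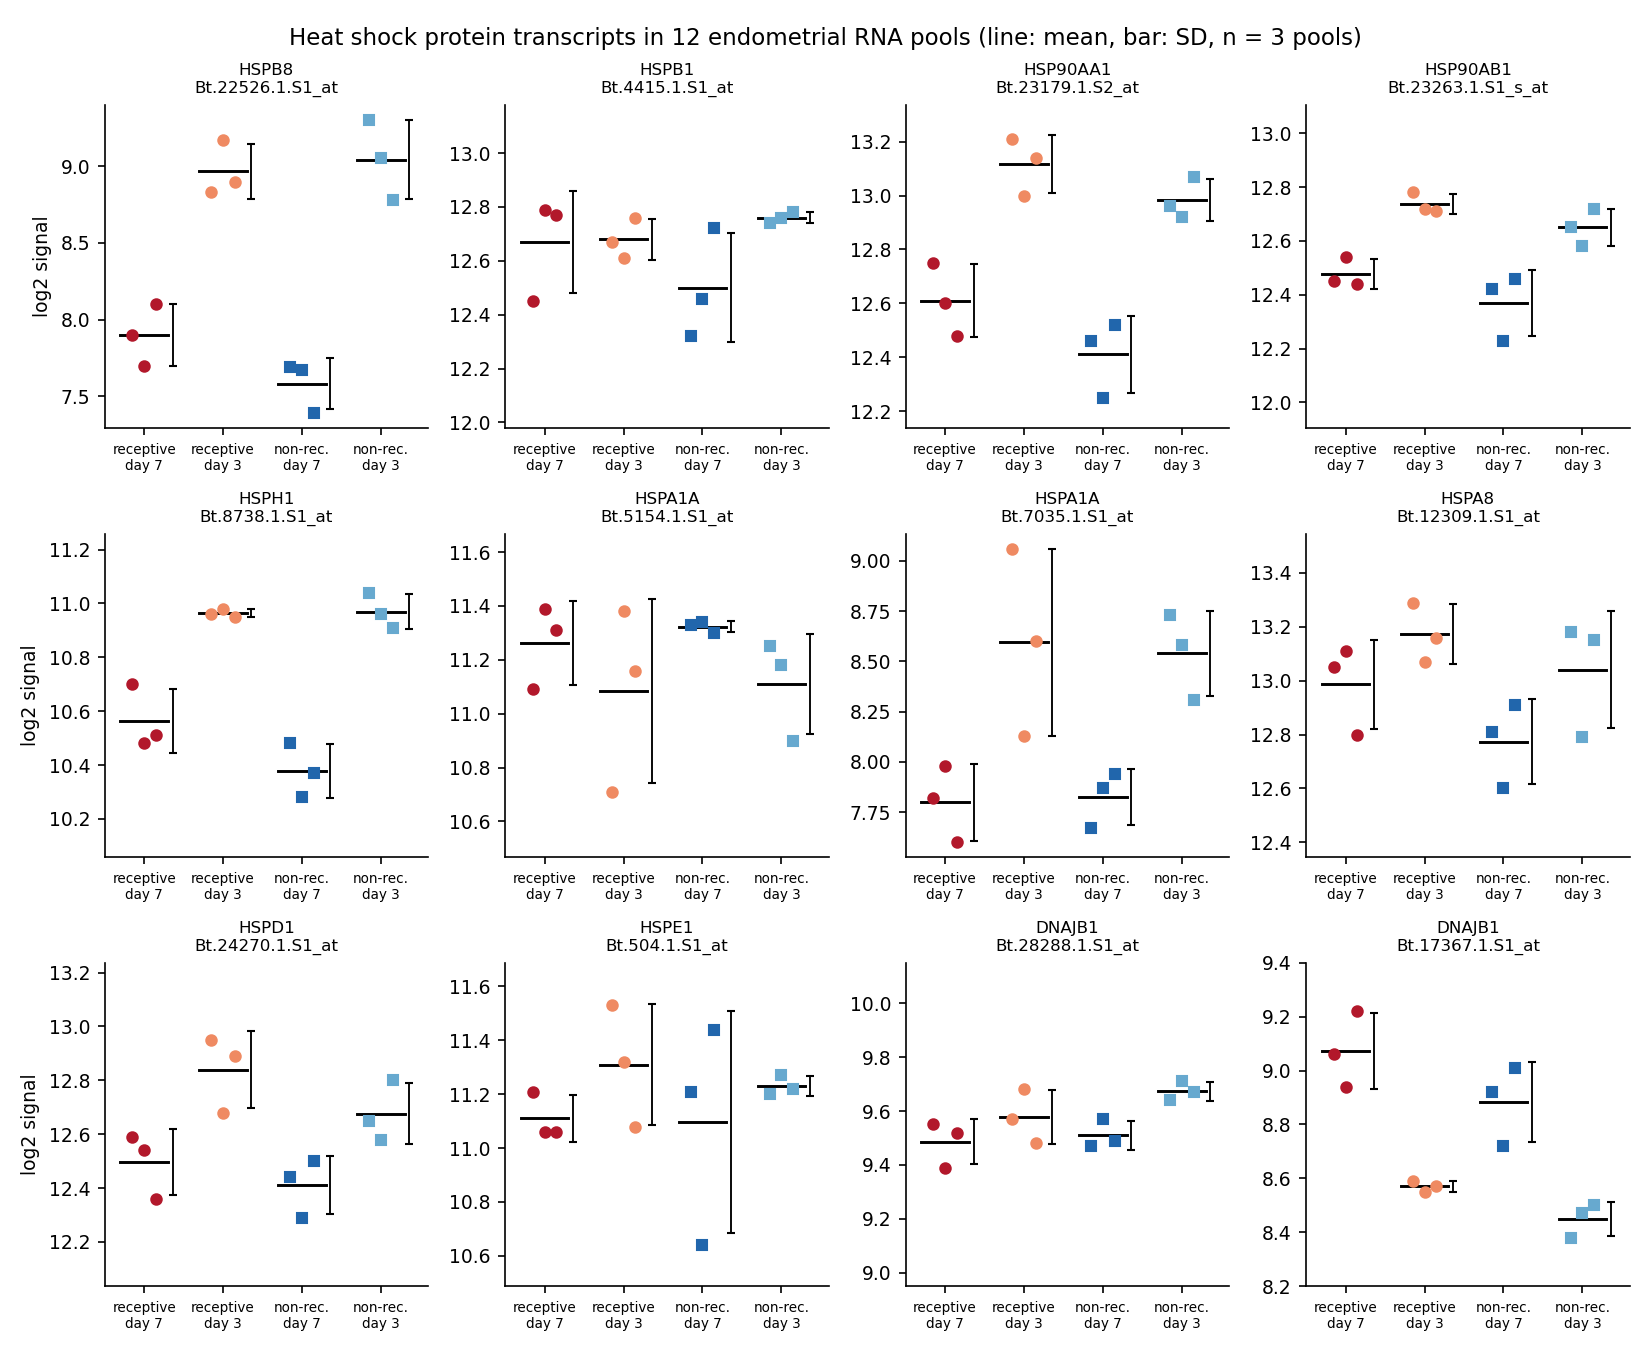
Log2 signal of the 10 lead probe sets and of a further probe set of HSPA1A and of DNAJB1 (vertical axes, which differ between panels) in the 4 groups of 3 pools (horizontal axis). Points are pools, lines are group means and bars are SDs; HSPB8 was 7.39 to 8.10 in the day 7 pools and 8.78 to 9.30 in the day 3 pools.

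HSPB8 is a small heat shock protein that, with the cochaperone BAG3, delivers misfolded protein to autophagy. Its probe set (Bt.22526.1.S1_at) read 7.90, 7.70 and 8.10 in the receptive day 7 pools, against 8.83, 9.17 and 8.90 in the receptive day 3 pools. It read 7.69, 7.67 and 7.39 in the non-receptive day 7 pools, against 9.30, 9.05 and 8.78 in the non-receptive day 3 pools. All 6 pools of day 7 were thus below all 6 of day 3. The difference was -1.26 ± 0.12 (SE, limma, adjusted p = 0.000926), so that the day 7 signal was 41.7% of that on day 3. Ordered by mean, non-receptive day 3 (9.04) came before receptive day 3 (8.97), and these were followed by receptive day 7 (7.90) and then non-receptive day 7 (7.58). Neither of the neighbours that share a day passed a test.

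HSPB1, the other small heat shock protein of the list, is an abundant binder of unfolded protein and of actin. Its lead probe set (Bt.4415.1.S1_at) read 12.45, 12.79 and 12.77 in the receptive day 7 pools and 12.67, 12.61 and 12.76 in the receptive day 3 pools. The non-receptive day 7 pools read 12.32, 12.46 and 12.72, and the non-receptive day 3 pools 12.74, 12.76 and 12.78. The days overlapped in receptive endometrium and lay apart by 0.02 in non-receptive endometrium. The averaged difference was -0.135 with a 95% interval of -0.34 to 0.07 (adjusted p = 0.364). A dim second probe set (Bt.14181.1.A1_at, 4.80 to 5.64 on day 7 and 5.35 to 6.11 on day 3) differed by -0.505 ± 0.19 (SE, adjusted p = 0.0996).

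HSP90AA1 encodes the stress-inducible HSP90 of the cytosol and HSP90AB1 its constitutive relative. The lead probe set of HSP90AA1 (Bt.23179.1.S2_at) read 12.75, 12.60 and 12.48 in receptive day 7 pools, against 13.21, 13.00 and 13.14 in receptive day 3 pools. The readings were 12.46, 12.25 and 12.52 in non-receptive day 7 pools, against 12.96, 12.92 and 13.07 in non-receptive day 3 pools. No day 7 pool reached the lowest day 3 pool, and the difference was -0.54 ± 0.08 (SE, adjusted p = 0.0046). The second probe set of the gene (Bt.23179.1.S1_at) lay between 9.04 and 9.57 on day 7 and between 9.86 and 10.91 on day 3, a difference of -1.03 ± 0.13 (SE, adjusted p = 0.00259). Both probe sets of HSP90AA1 thus fell without overlap between days, with 95% intervals of -0.72 to -0.36 for the lead and of -1.32 to -0.74 for the second, and the contrast between the probe sets was not tested.

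HSP90AB1 (Bt.23263.1.S1_s_at) fell by less. It read 12.45, 12.54 and 12.44 in receptive day 7 pools, against 12.78, 12.72 and 12.71 in receptive day 3 pools. In non-receptive endometrium it read 12.42, 12.23 and 12.46 on day 7, against 12.65, 12.58 and 12.72 on day 3. The days did not overlap, and the difference was -0.27 ± 0.07 (SE, adjusted p = 0.0287), or 82.9% of the day 3 signal. The call for HSP90AB1 was lost in each of 7 of the 12 fits that left out 1 pool, with adjusted p up to 0.0968 over all alternatives.

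HSPH1, the HSP110 of the cytosol, exchanges the nucleotide of HSP70 and also binds unfolded protein. Its lead probe set (Bt.8738.1.S1_at) read 10.70, 10.48 and 10.51 in receptive day 7 pools, against 10.96, 10.98 and 10.95 in receptive day 3 pools. It read 10.48, 10.28 and 10.37 in non-receptive day 7 pools, against 11.04, 10.96 and 10.91 in non-receptive day 3 pools. The 6 pools of day 3 kept within 10.91 to 11.04, above every pool of day 7. The difference was -0.50 ± 0.07 (SE, adjusted p = 0.00355). The 3 other probe sets of HSPH1 were dim, with means of 0.72 to 3.90, and did not pass, and Bt.19629.2.S1_at was listed at 0 in all 6 pools of day 7 and in 2 of day 3.

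HSPA1A is the classical stress-inducible HSP70, and its probe sets were divided. The lead probe set (Bt.5154.1.S1_at) read 11.09, 11.39 and 11.31 in receptive day 7 pools and 10.71, 11.38 and 11.16 in receptive day 3 pools. It read 11.33, 11.34 and 11.30 in non-receptive day 7 pools and 11.25, 11.18 and 10.90 in non-receptive day 3 pools. The receptive pools of both days overlapped, and the averaged difference was 0.20 ± 0.12 (SE, adjusted p = 0.311), which turned to -0.01 with the actin gap as a covariate. Of the 5 other probe sets, 4 had positive differences of 0.22 to 0.27 that did not pass (adjusted p = 0.0817 to 0.321).

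The remaining HSPA1A probe set (Bt.7035.1.S1_at) went the other way. It read 7.82, 7.98 and 7.60 in receptive day 7 pools, against 9.06, 8.13 and 8.60 in receptive day 3 pools. It read 7.67, 7.87 and 7.94 in non-receptive day 7 pools, against 8.73, 8.58 and 8.31 in non-receptive day 3 pools. The days did not overlap, and the difference was -0.755 ± 0.16 (SE, adjusted p = 0.0137). With the actin gap as a covariate it was -0.54 (adjusted p = 0.0509). The annotation ties 2 of the 6 HSPA1A probe sets, those named Bt.5154, to a gene identifier that the RefSeq table of assembly ARS-UCD2.0 does not hold, and RefSeq lists HSPA1B as a synonym of HSPA1A. Near-identical copies can share signal, and whether they did was not tested. Both signs also occurred among the 4 probe sets of the identifier that RefSeq holds, so no direction is given for HSPA1A.

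HSPA8, the constitutive HSP70 that also uncoats clathrin vesicles, was among the members that did not pass. Its probe set (Bt.12309.1.S1_at) read 13.05, 13.11 and 12.80 in receptive day 7 pools and 13.29, 13.07 and 13.16 in receptive day 3 pools. The non-receptive readings were 12.81, 12.60 and 12.91 on day 7 and 13.18, 12.79 and 13.15 on day 3. Both pairs of groups overlapped, and the difference was -0.23 ± 0.10 (SE, adjusted p = 0.167).

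DNAJB1 is the J domain protein that loads substrates onto HSP70 and triggers its ATP hydrolysis, and its probe sets also differed. The lead probe set (Bt.28288.1.S1_at) lay between 9.39 and 9.57 on day 7 and between 9.48 and 9.71 on day 3 (difference -0.13 ± 0.07, SE, adjusted p = 0.233). The second (Bt.17367.1.S1_at) read 9.06, 8.94 and 9.22 in receptive day 7 pools, against 8.59, 8.55 and 8.57 in receptive day 3 pools. It read 8.92, 8.72 and 9.01 in non-receptive day 7 pools, against 8.38, 8.47 and 8.50 in non-receptive day 3 pools. Here all 6 pools of day 7 were above all 6 of day 3, by 0.47 ± 0.08 (SE, adjusted p = 0.00623). No other probe set of the 21 rose.

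The mitochondrial chaperonin HSPD1 (Bt.24270.1.S1_at) read 12.59, 12.54 and 12.36 in receptive day 7 pools, against 12.95, 12.68 and 12.89 in receptive day 3 pools. The non-receptive readings were 12.44, 12.29 and 12.50 on day 7, against 12.65, 12.58 and 12.80 on day 3. The days were apart within each receptivity group but overlapped over all pools, since receptive day 7 pool 1 was above non-receptive day 3 pool 2. The difference was -0.305 ± 0.08 (SE, adjusted p = 0.0383), and the call was lost in 9 of the 12 fits that left out 1 pool, with adjusted p up to 0.144 over all alternatives. The cochaperonin HSPE1 (Bt.504.1.S1_at) lay between 10.64 and 11.44 on day 7 and between 11.08 and 11.53 on day 3 and did not pass (-0.17 ± 0.14, SE, adjusted p = 0.449).

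**Figure D2:**
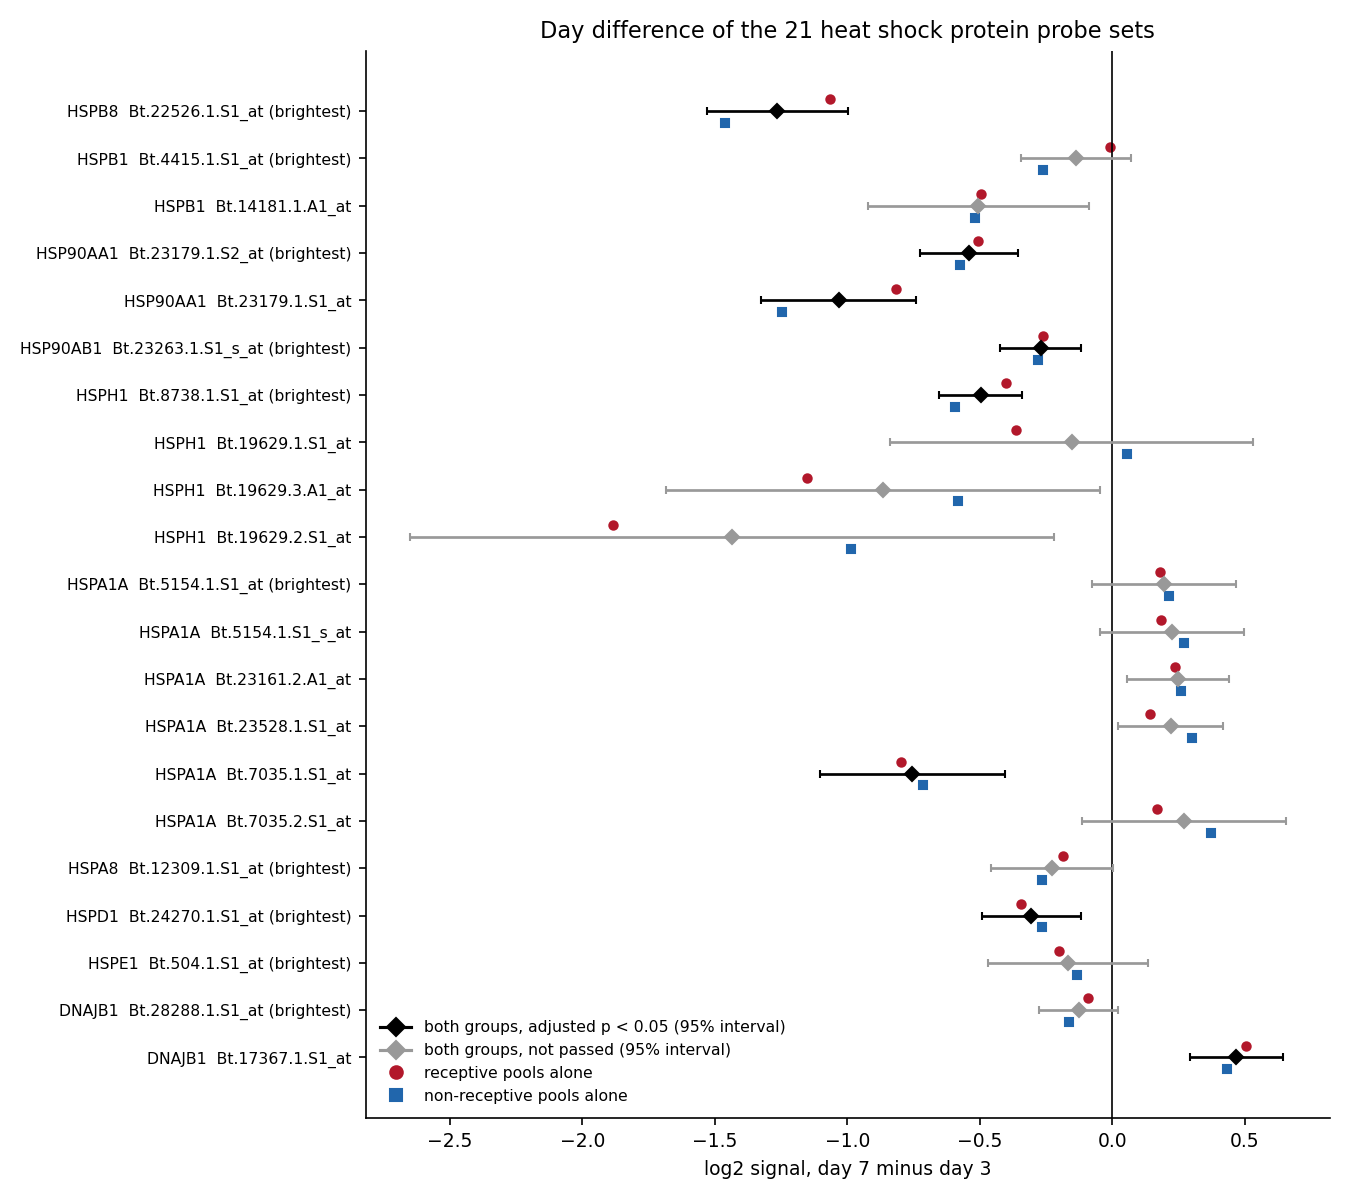
Difference in log2 signal between day 7 and day 3 (horizontal axis) for the 21 probe sets (rows). Diamonds with 95% intervals are averages over receptivity, black where the adjusted p was under 0.05; circles and squares are the receptive and non-receptive pools alone. The lead probe sets of HSPB8, HSP90AA1 and HSPH1 are at -1.26, -0.54 and -0.50, and Bt.17367.1.S1_at of DNAJB1 is at 0.47.

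Within receptive endometrium alone, HSPB8 fell by 1.07 ± 0.17 (SE, adjusted p = 0.027) and was the 1 member probe set of 21 that passed, where 1.37% of all probe sets were called lower and 0.595% higher. Within non-receptive endometrium, 4 member probe sets fell and 0 rose, where 1.66% of all probe sets were called lower and 0.82% higher. These were HSPB8 (-1.46 ± 0.17, SE, adjusted p = 0.0078), both probe sets of HSP90AA1 (-0.57 and -1.25, adjusted p = 0.0385 and 0.0164) and the lead probe set of HSPH1 (-0.59, adjusted p = 0.0216). The same 3 probe sets of HSP90AA1 and HSPH1 differed in receptive endometrium by -0.51, -0.82 and -0.40 without passing (adjusted p = 0.0569, 0.0548 and 0.0672). The call of HSPB8 in receptive endometrium was lost without receptive day 7 pool 1 or pool 2 and without receptive day 3 pool 1 or pool 3 (adjusted p up to 0.0864 over all alternatives). Without non-receptive day 3 pool 1, 0 of the 4 non-receptive calls were made.

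The day differences of both receptivity groups were not shown to differ. The interaction of day and receptivity passed for 0 of 21 member probe sets, as for 0% of all probe sets (limma, smallest adjusted p = 0.999). At an unadjusted p under 0.05 there were 0 of 21, against 813 of all 24016. For HSPB8 the interaction was 0.39 with a 95% interval of -0.14 to 0.93, and for the lead probe set of HSP90AA1 it was 0.07, with an interval of -0.30 to 0.43. Over the 21 probe sets these intervals had a median half-width of 0.535.

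Between receptive and non-receptive endometrium, no heat shock protein transcript passed at an adjusted p under 0.05. On day 3, 0 of 21 probe sets passed, against 0.0125% of all (limma, smallest adjusted p = 0.936). Against 1264 of all 24016 probe sets at an unadjusted p under 0.05, there was 1 of the 21. This was Bt.23179.1.S1_at of HSP90AA1, with 10.39, 9.86 and 10.31 in receptive day 3 pools and 10.91, 10.58 and 10.62 in non-receptive day 3 pools, which did not overlap. Its difference was -0.52, with a 95% interval of -0.93 to -0.10 (adjusted p = 0.936), while the lead probe set of the gene differed by 0.13. In all, 2 of the 21 probe sets were lower and 2 higher without overlap on day 3. The share of all probe sets without overlap was not computed for receptivity, so no result is read from this.

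On day 7, 0 of 21 passed, as 0% of all probe sets. At an unadjusted p under 0.05 there was 1, against 1396 of all 24016. It was the dim Bt.7035.2.S1_at of HSPA1A (-0.55, adjusted p = 0.821). HSPB8 read 7.90, 7.70 and 8.10 in receptive day 7 pools and 7.69, 7.67 and 7.39 in non-receptive day 7 pools. These values did not overlap, yet the difference of 0.32 had a 95% interval of -0.06 to 0.69 (adjusted p = 0.821). HSPB8 was the 1 member probe set without overlap on day 7, and the share over all probe sets was not computed here either. Averaged over days, 0 of 21 passed, against 0.00416% of all (smallest adjusted p = 0.665). Of the 21, 2 were at an unadjusted p under 0.05, against 1773 of all 24016. With the actin gap, which differed between receptivity groups, as a covariate, 0 of 21 passed in each of these contrasts. The gap was 0.82 to 3.11 in receptive pools and 0.02 to 0.93 in non-receptive pools. This fit can therefore hardly separate the gap from receptivity, and no conclusion is drawn from it.

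Within groups, the members did not vary as 1 block. The correlation of deviations from the group means was computed for the 45 pairs of lead probe sets over the 12 pools, as a description. It ranged from -0.76 (HSPB8 with HSPD1) to 0.94 (HSP90AA1 with HSPD1) around a median of 0.07, and 20 pairs were negative. HSP90AA1, HSP90AB1, HSPA8 and HSPD1, singled out after their values were seen, varied together, with r of 0.69 to 0.94 over their 6 pairs. HSPB8, which like HSP90AA1 and HSP90AB1 was lower on day 7, had r of -0.62 and -0.55 with their lead probe sets within groups. For HSP90AA1 these relations depended on the probe set. The second one (Bt.23179.1.S1_at) had r of 0.03 with HSP90AB1, 0.24 with HSPA8 and 0.34 with HSPD1. With HSPB8 it had 0.18, and with the lead probe set of its own gene 0.41.

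**Figure D3:**
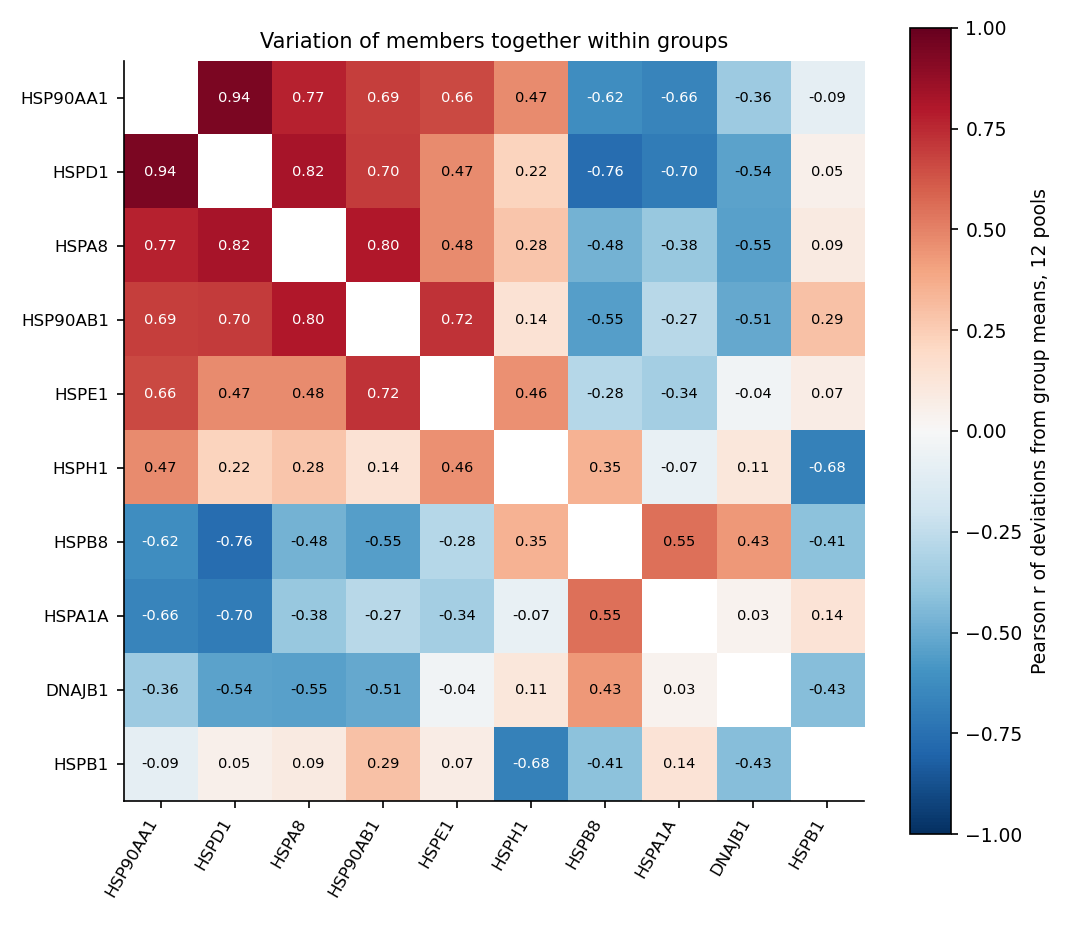
Pearson correlation of deviations from the 4 group means over 12 pools for each pair of the 10 lead probe sets (rows and columns are genes, colour and printed value are r). The block of HSP90AA1, HSPD1, HSPA8 and HSP90AB1 has r of 0.69 to 0.94, and HSPB8 is negative with each of them.

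These within-group deviations moved with control measures of the arrays. In the 3 pools of high poly-A spike signal, all 12 values of HSP90AA1, HSP90AB1, HSPA8 and HSPD1 were below their group mean, by 0.017 to 0.25, against 10 of 36 values in the other 9 pools. As these genes were singled out because they vary together, the 12 values are not independent of each other. Deviations also cancel out within a group of 3 pools, so low values in 1 pool raise those of the others. The comparison with the other 9 pools is therefore partly fixed in advance, and no conclusion is drawn from it. The other 6 lead probe sets had 5 of 18 values below their group mean in these pools, and HSPB8, the lead HSPA1A probe set and the lead DNAJB1 probe set were above it in all 3. Without these 3 pools, 5 member probe sets were called lower on day 7 and 1 higher, and HSPB8, HSP90AA1 and HSPH1 differed by -1.23, -0.545 and -0.47 (adjusted p = 0.018, 0.0265 and 0.035).

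The lead HSPA1A probe set moved against the actin gap. Over the 12 pools, its deviations had r of -0.91 with those of the gap, and r of -0.74 without the 2 pools whose gap deviated most, receptive day 3 pools 1 and 2. The pool with the widest gap, receptive day 3 pool 1 at 3.11, had the lowest HSPA1A signal, 10.71, and the highest signal of the opposing HSPA1A probe set, 9.06. For that probe set (Bt.7035.1.S1_at) r with the gap was 0.69, and -0.22 without the same 2 pools, so the relation rests on them. For the lead probe set of HSP90AA1 and for HSPD1 r with the gap was 0.73 and 0.78, and 0.90 and 0.84 without the same 2 pools. For the second HSP90AA1 probe set (Bt.23179.1.S1_at) r was 0.54, and 0.07 without these pools, so the probe sets of HSP90AA1 differed in this. The part of the gap in these values was tested only as a covariate of the group contrasts. With this covariate, HSPB8 and the lead probe sets of HSP90AA1 and HSPH1 differed between days by -1.39, -0.45 and -0.49 and still passed. HSP90AB1, HSPD1 and Bt.7035.1.S1_at did not pass in this fit. The gap itself differed by -0.62 between day 7 and day 3 (exact permutation p = 0.065, adjusted p = 0.217). The fit can therefore not fully separate the gap from day, and no conclusion on the gap is drawn from it.

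**Figure D4:**
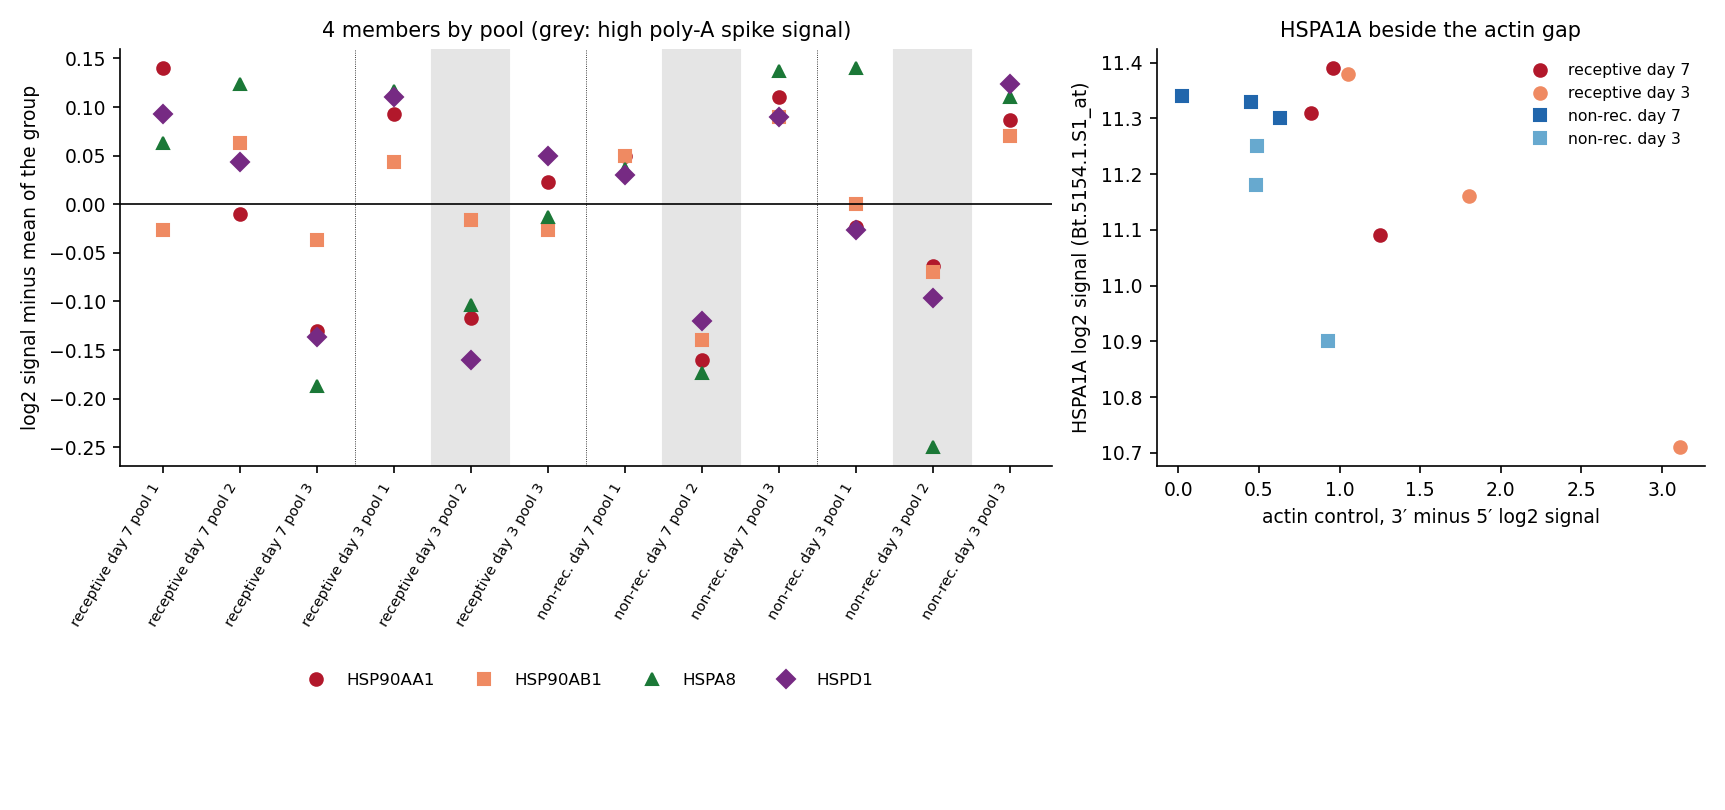
Left, deviation of log2 signal from the group mean (vertical axis) for HSP90AA1, HSP90AB1, HSPA8 and HSPD1 in each of the 12 pools (horizontal axis), with the 3 pools of high poly-A spike signal in grey, where all 12 values are below 0. Right, log2 signal of HSPA1A Bt.5154.1.S1_at (vertical axis) against the log2 gap between 3′ and 5′ actin controls (horizontal axis), where receptive day 3 pool 1 is at a gap of 3.11 and a signal of 10.71.

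Genes whose signal followed that of a member over the 12 pools were ranked by Pearson r among 6298 lead probe sets that were above the array median and never at 0. For HSPB8 these were TSPAN6 (r = 0.98), CXXC5, EPB41L3, BEX5 and SMC3 (0.95), all of which fell on day 7. For HSP90AA1 they were SAE1 (0.96), STMN1, HNRNPC, TRRAP and SLC39A6 (0.95), which also fell. As HSPB8 and HSP90AA1 were lower on day 7 without overlap, genes chosen for a high r with them were bound to be lower too. Their fall is therefore no separate result. For HSPA8 they were SLC4A2 (0.97), SSR1, TRMT6, SHMT2 and DAD1 (0.90), none of which passed between days. Within groups, r was 0.35 to 0.82 for the 5 genes of HSPB8, 0.50 to 0.83 for those of HSP90AA1 and 0.81 to 0.97 for those of HSPA8. All points share the 12 arrays and their control measures.

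The lists that follow are read by lead probe sets, of which 10.3% of all genes were called lower and 6.76% higher. Among 27 measured HSP70 and HSP90 cochaperones, 3 fell, a share close to that of all genes, and 0 rose, with a median of -0.03 against -0.02 over all genes. CACYBP read 10.33 ± 0.07 on day 7 and 10.79 ± 0.10 on day 3 (SD, n = 6, adjusted p = 0.00491). AHSA1, which stimulates the ATPase of HSP90, read 10.43 ± 0.15 and 10.74 ± 0.06 (day 7 and day 3, adjusted p = 0.0226). The cyclophilin PPID read 10.42 ± 0.18 and 10.78 ± 0.08 (day 7 and day 3, adjusted p = 0.0257), but another probe set of PPID rose.

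Several other cochaperones of HSP90 did not pass. STIP1, which joins HSP70 to HSP90, differed by -0.26 (adjusted p = 0.0687), PTGES3 (p23), which closes the complex, by -0.23 (0.0518), and the immunophilins FKBP4 and FKBP5 by -0.17 and -0.03 (0.363 and 0.966). BAG3, the partner of HSPB8, differed by 0.135 ± 0.14 (SE, adjusted p = 0.558), while HSPB8 itself fell. Of 5 measured steroid receptors 1 fell, ESR1, which was dim (3.57 ± 0.43 on day 7 and 4.20 ± 0.34 on day 3, SD, n = 6, adjusted p = 0.0499), and PGR differed by -0.12 (adjusted p = 0.86).

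Of the heat shock transcription factors, 1 of 4 measured fell. HSF2 read 8.20 ± 0.17 on day 7 and 8.55 ± 0.06 on day 3 (SD, n = 6, adjusted p = 0.0313), without overlap (7.96 to 8.36 and 8.44 to 8.62). HSF1, the main activator of the heat shock response, read 8.10 on day 7 and 8.07 on day 3 (adjusted p = 0.858).

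Among the 10 measured other HSP70, HSP110 and small heat shock protein genes, only HSPA4, a relative of HSPH1, fell (-0.545 ± 0.09, SE, adjusted p = 0.00538), and of 13 J domain proteins 2 fell. DNAJC9, which handles histones, read 6.67 ± 0.17 on day 7 and 7.91 ± 0.30 on day 3 (SD, n = 6, adjusted p = 0.00237), and DNAJC7 differed by -0.30 (adjusted p = 0.0421). Of 12 measured genes of the TRiC chaperonin, which folds actin and tubulin, and of its partner prefoldin, 4 fell and 1 rose. CCT8, CCT2 and CCT4 differed by -0.48, -0.375 and -0.355, and PFDN4 by 0.48. The fourth that fell, CCT6A (-0.42), was named after its value was seen.

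For lists of this length, the shares of all genes called (10.3% lower and 6.76% higher) amount to a few genes at most. Of 11 measured mitochondrial chaperones and proteases beside HSPD1 and HSPE1, 0 fell and 1, the protease CLPP, rose (0.36, adjusted p = 0.0236). Of 15 chaperones of the endoplasmic reticulum and of 25 proteasome subunits, 0 passed in either direction. Of 15 measured immediate early and stress response genes 2 fell, JUN (-0.90, adjusted p = 0.00266) and JUND (-0.445, 0.0207), and 2 rose, HMOX1, which breaks down heme (1.64, 0.008), and KLF4 (0.39, 0.0464). Of the 222 genes measured in these lists and in the marker lists, 0 passed by lead probe sets in a receptivity contrast or the interaction.

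**Figure D5:**
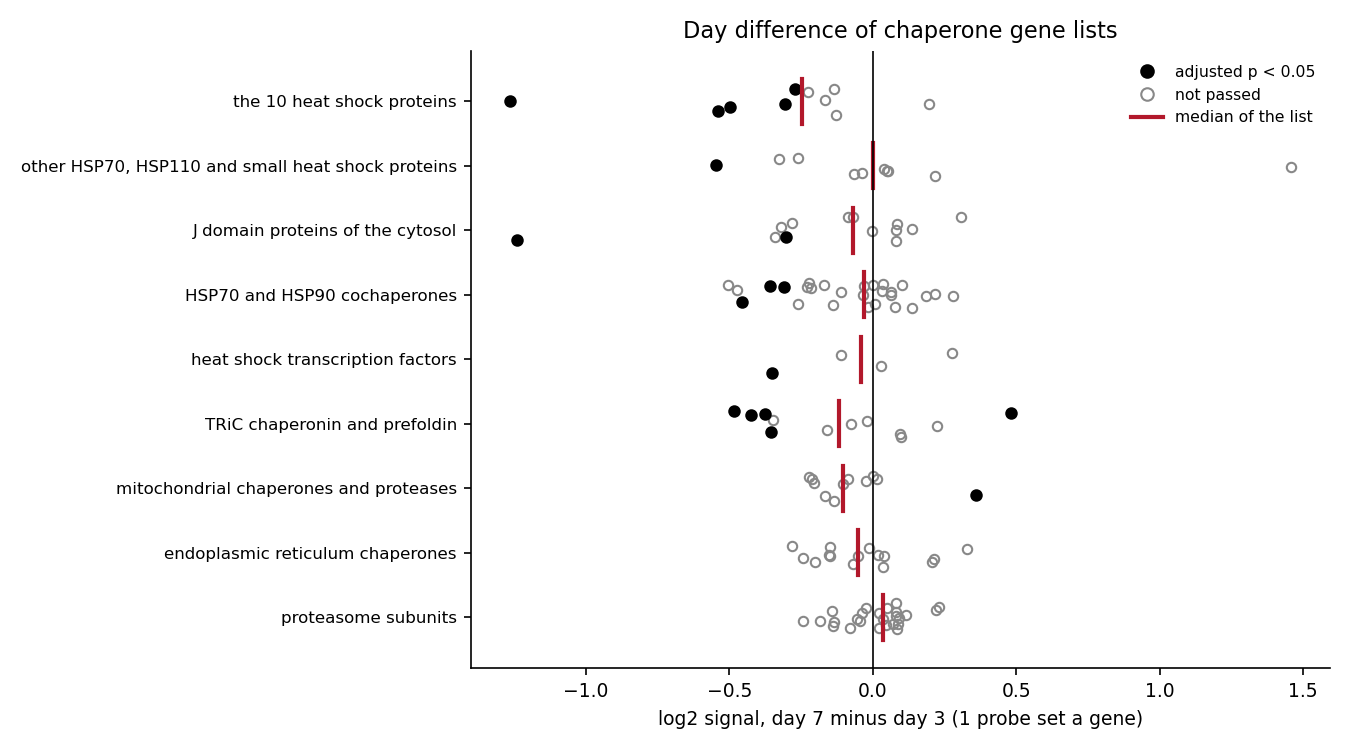
Difference in log2 signal between day 7 and day 3 (horizontal axis) for the lead probe set of each gene in 9 chaperone and proteasome lists (rows). Filled points passed at an adjusted p under 0.05 and red lines are list medians, which range from -0.25 for the 10 heat shock proteins to 0.035 for the proteasome.

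Markers of cell types and of division moved with the same day contrast. The summed signal of 6 measured neutrophil markers was 11.38 to 13.81 on day 7 and 8.01 to 10.37 on day 3, with 4 of 6 called higher and MMP9 at 0 in 3 pools. That of 4 squamous epithelium markers was 8.98 to 11.46 on day 7 and 7.85 to 8.59 on day 3, with 4 of 4 higher. Cell cycle genes were at 11.72 to 12.32 on day 7 and at 12.61 to 13.27 on day 3, with 10 of 13 lower, endothelial markers at 8.64 to 9.23 and 9.14 to 10.87 (day 7 and day 3), with 3 of 10 lower, and stromal markers at 12.20 to 13.62 and 12.82 to 14.85 (day 7 and day 3), with 4 of 12 lower. Epithelial markers, with 0 of 11 called, and those of smooth muscle (2 of 11), leukocytes (3 of 12, ITGAM at 0 in some pools) and erythrocytes (2 of 6) overlapped between days. The days did not overlap in neutrophil, squamous and cell cycle sums. The part of these shifts in the fall of HSPB8, HSP90AA1, HSP90AB1, HSPH1 and HSPD1 was not tested.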

How the data were processed

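Total RNA had been extracted with TRI Reagent, treated with DNase and column-purified, and biotin-labelled cRNA was hybridised. The authors deposited 1 table of log2 signals of 24128 probe sets on 12 arrays, for which GCOS 1.1.1, PLIER and the Affymetrix Expression Console are listed in the submitters' processing notes. The sources used here do not give how arrays were scaled. Values were used as deposited, without a filter. After 112 control probe sets were removed, limma 3.58.1 (R 4.3.3) was fitted to all 12 arrays with a mean for each of 4 groups and 7 contrasts, two-sided, with Benjamini-Hochberg adjustment over 24016 probe sets and a threshold of 0.05. The code was tested on simulated data.

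Genes were named from the platform annotation, and 19 of the 21 member probe sets had a gene identifier in the RefSeq table. Members and gene lists were chosen with earlier results of these data known. Of each further list, up to 4 genes with the smallest p among those that passed were named, and BAG3, FKBP4, FKBP5, PTGES3, STIP1, AHSA1, HSF1, HSF2, ESR1 and PGR in any case. The 5 genes most like a member were named for HSPB8, HSPA8 and HSP90AA1. Array controls were compared by exact permutation (400 assignments). Alternatives were other scalings, filters, spread models, array weights, a pool block, the actin gap as a covariate, the groups of a contrast alone, gene means, each pool left out and, chosen after seeing the data, the 3 pools of high poly-A spike signal left out. The number of arrays limits precision.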

Additional observations from a re-analysis of the deposited data

Results flagged for a closer look

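The lead HSPA1A probe set (Bt.5154.1.S1_at) read 11.09 in receptive day 7 pool 1, while the other 5 day 7 pools read 11.30 to 11.39. The gap to the nearest pool was 70% of the range of the 6 pools. It was the single value singled out among 42 sets of 6 pools, in which chance alone singles out about 1 in 20. That pool also had the widest actin gap of the day 7 pools, 1.25 against 0.02 to 0.96. Without it, the day difference of the probe set was 0.24 and did not pass.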

How the results depend on the processing

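The averaged day differences of HSPB8, both HSP90AA1 probe sets, the lead HSPH1 probe set and Bt.17367.1.S1_at of DNAJB1 kept their direction and passed under every alternative run. HSP90AB1 and HSPD1 did not pass with arrays centred on their median, with the actin gap as a covariate or without the 3 pools of high spike signal (an alternative chosen after seeing the data), and the cause was not tested. In fits without 1 pool, HSP90AB1 was lost with the omission of pool 1 of any of the 4 groups, or of pool 3 of receptive day 7, of receptive day 3 or of non-receptive day 3. HSPD1 passed with the omission of pool 1 of receptive day 7, pool 2 of receptive day 3 or pool 3 of non-receptive day 7, and in no other such fit. No called difference changed sign.

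Of the 7 probe sets called lower in the averaged day contrast, 4 were called with the actin gap as a covariate and 5 to 7 without 1 pool. The HSPA1A probe set Bt.7035.1.S1_at passed under all alternatives but the covariate. By lead probe sets the count was 5, and it was 3 with arrays centred, with the covariate and without the high spike pools, and 3 to 5 without 1 pool. The 1 called higher became 2 with arrays centred, with the brighter probe sets alone or with an intensity trend and robust spread, 3 with array weights, and 1 to 2 without 1 pool. The added calls were all of HSPA1A. Bt.23161.2.A1_at passed in each of these settings that kept all pools, and Bt.23528.1.S1_at with array weights. Bt.7035.2.S1_at passed without receptive day 7 pool 1.

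Within receptive endometrium the 1 called lower became 5 with brighter probe sets, 3 without probe sets at 0, 5 with the trend and 4 with array weights, but 0 with the groups of the contrast alone or without the high spike pools, and 0 to 3 without 1 pool. By lead probe sets these counts were 3, 2, 3 and 3, 2 with gene means, 0 with the pool number as a block, 0 with the groups of the contrast alone or without the high spike pools, and 0 to 2 without 1 pool. The 0 called higher became 1 with centring, brighter probe sets, no probe sets at 0, the trend or array weights, and 0 to 1 without 1 pool. Within non-receptive endometrium the 4 called lower, and the 3 by lead probe sets, became 0 with the groups of the contrast alone or without the high spike pools, and 0 to 4 and 0 to 3 without 1 pool. The lead HSP90AA1 probe set was also lost with arrays centred or with the pool block, and the lead HSPH1 probe set with gene means. With array weights, Bt.7035.1.S1_at of HSPA1A was called lower in addition. The 0 called higher became 1 with brighter probe sets or the trend and 2 with array weights, and stayed 0 without 1 pool. The receptivity contrasts and the interaction gave 0 calls among members under every alternative.

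No clear pairing by pool number was seen over all groups. Deviations of same-numbered pools had r between -0.179 and 0.136 over 18 pairs, and 5 of 12 pools correlated best with their own number. Between receptive day 3 and receptive day 7, same-numbered pools had r of 0.136, 0.052 and 0.122, each above the r of differing numbers. Between the non-receptive days they had 0.018, 0.028 and -0.038, and differing numbers reached 0.062. Whether pools of the same number share animals was not tested. With the pool number as a block, 8 member probe sets were called lower between days, 1 in receptive and 3 in non-receptive endometrium. In receptive endometrium HSPB8 was then lost (adjusted p = 0.052) and Bt.23179.1.S1_at of HSP90AA1 passed (0.0379).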
